A study of Mus musculus with 18 samples.

Results

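The 10 genes described here are imprinted genes that limit or promote fetal growth: H19, Meg3, Rian, Mirg, Dlk1, Mest, Peg3, Plagl1, Cdkn1c and Grb10. They were listed by symbol, found in the count table through their Ensembl gene IDs, and are 10 of its 30583 genes. Of the 10, 9 passed the filter on low counts that left 16311 genes for testing, and Dlk1 did not. RNA was sequenced from left ventricular myocardium of 18 male C57BL/6JR mice aged 12 weeks, 3 mice in each of 6 groups and 1 library per mouse. In 5 groups the left anterior descending coronary artery was tied to cause a myocardial infarction, and hearts were collected 10 min, or 1, 6, 24 or 72 h, after the ligature. The sham group had the same operation with a suture passed but left untied, and its time is given as 0 h. All 6 groups, sham included, were operated under sodium pentobarbital and were given isoflurane before death, and the labels name no transgene or deletion. There was 1 sham group for all 5 times, so all comparisons with sham share the same 3 libraries and no time has a sham of its own.

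Imprinted genes are transcribed from one parental copy, chosen by DNA methylation that is laid down in the germ line and kept through later cell divisions. Many of them are abundant in the fetal and newborn heart, decline as growth slows, and have been described as a co-regulated set. H19, Meg3, Rian, Mirg, Cdkn1c and, in most tissues, Grb10 are active on the maternal copy, and Dlk1, Mest, Peg3 and Plagl1 on the paternal copy. The mice were of one inbred strain, so the parental copy behind a read was not analysed here.

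At 72 h, 8 of the 9 tested genes passed the test against sham. H19, Mirg, Rian, Mest, Meg3, Plagl1 and Peg3 rose, from 13.8-fold for H19 down to 1.80-fold for Peg3, and Cdkn1c fell to a level 5.00-fold lower. Grb10 did not pass. Among all genes, 66.4% of those tested were called at 72 h, 34.2% higher and 32.2% lower, so a call at this time is common. The hearts at 72 h and the sham hearts did not overlap for the same 8 genes, which was so for 75.8% of all tested genes. The median log2 fold change was 2.0 over the 9 tested genes and 0.03 over all tested genes. Calls were made with edgeR's quasi-likelihood test at a Benjamini-Hochberg adjusted p under 0.05 over all tested genes. Levels are TMM-scaled CPM, which are counts relative to the library total after edgeR's correction for library composition, and are listed for replicates 1, 2 and 3 in that order. Replicates were separate mice, and replicate numbers were not used to link mice across groups in the main fit.

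Libraries held 18199172 to 25062351 counts over all genes, and their TMM factors ran from 0.825 to 1.43. Replicate 1 at 6 h stood apart. Myl7, a myosin light chain of the atria, had 827 counts (49.3 CPM) there and at most 0.363 CPM in sham. The summed neutrophil markers of that library were the highest of its group (733 CPM against 260 and 96.6). The calls of the set at 6 h against sham are therefore also given without that library, and most other results at 6 h are not. The labels call the material both myocardial tissue and cardiomyocytes. Markers of several other cell types were present in every group, as given below, and the libraries are described as tissue. In tissue RNA, a change in the number of cells of a type and a change in RNA per cell cannot be told apart.

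**Figure D1:**
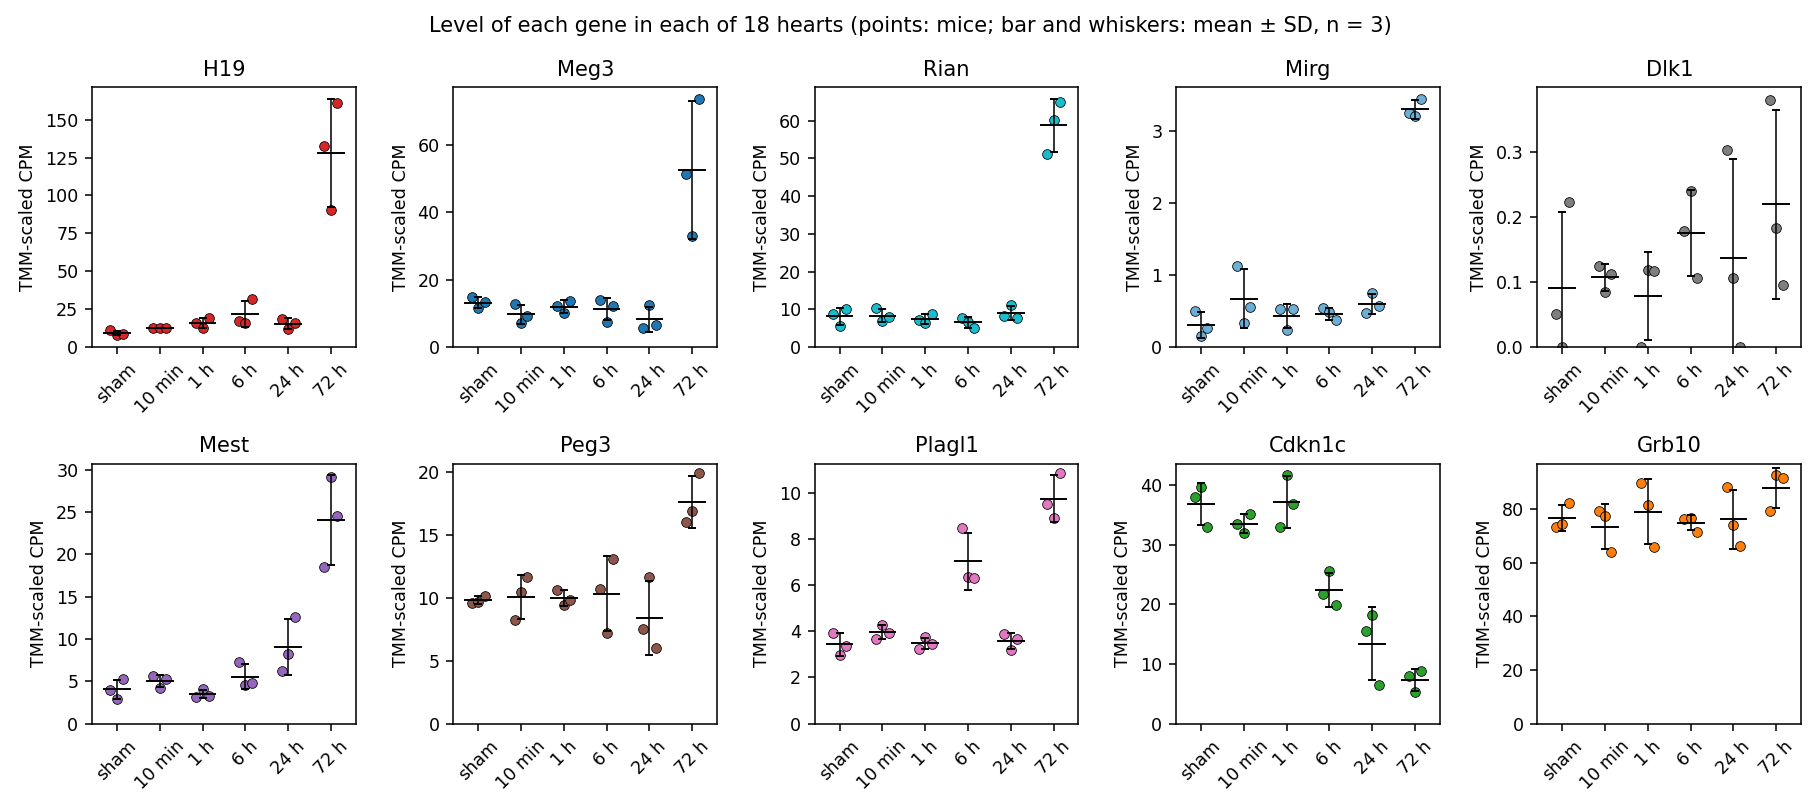
TMM-scaled CPM (y axis, linear from 0) of each of the 10 genes in each of 18 mice by group (x axis), with points for mice and lines with whiskers for mean ± SD (n = 3). H19, Meg3, Rian, Mirg, Mest, Peg3 and Plagl1 are highest at 72 h, Cdkn1c is lowest at 72 h, Grb10 overlaps sham throughout, and Dlk1 stays under 0.4 CPM.

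H19 is a long non-coding RNA (ENSMUSG00000000031) on chr7:142575529-142578143, minus strand, in GENCODE M21 (GRCm38, also named mm10). It lies 72.6 kb from Igf2, a fetal growth factor with which it shares enhancers, and it is the precursor of miR-675. The sham hearts had 11.02, 8.04 and 8.66 CPM. At 10 min the values were 12.3, 12.4 and 12.6, and at 1 h they were 16.0, 12.5 and 19.2. All 6 of these hearts were above the highest sham heart, but the share of all genes that separate so was not computed at these times. Neither time passed the test. The log2 fold change was 0.43 ± 0.28 (SE, n = 3 per group, edgeR adjusted p = 0.842) at 10 min and 0.78 ± 0.28 (adjusted p = 0.695) at 1 h. At 6 h the hearts had 17.4, 15.8 and 31.7 CPM, again all above sham, with replicate 3 far above the other two. H19 rose at 6 h by a log2 fold change of 1.23 ± 0.28 (edgeR adjusted p = 0.00442), and without the atrial-marked replicate 1 the value was 1.36 (adjusted p = 0.00668). At 24 h the values of 18.8, 11.7 and 15.5 CPM overlapped those of 1 h and 6 h. The rise over sham was then 0.73 ± 0.28 (edgeR adjusted p = 0.0457), and the call was lost in 9 of 18 fits that each left out 1 library and with no filter on low counts (adjusted p = 0.116). At 72 h H19 reached 132, 90.2 and 161 CPM, and even the lowest of these hearts was above every heart of every other group. The log2 fold change was 3.79 ± 0.29 (edgeR adjusted p = 2.02e-08).

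H19 and Igf2 were compared within each library, because a ratio of counts in 1 library does not depend on how libraries are scaled. Igf2 was named for its place beside H19 after its values were seen. H19 counts per Igf2 count were 0.293, 0.25 and 0.241 in sham and 2.43, 2.76 and 2.99 at 72 h. The groups lay far apart, and the ratio of geometric means was 10.4-fold. At 24 h the ratios were 0.584, 0.487 and 0.736, already all above sham, with a 2.28-fold difference. At 10 min, 1 h and 6 h the hearts were above sham too, by 1.21-, 1.5- and 1.83-fold. The exact two-sided permutation p was 0.1 at each of the 5 times, the smallest that 3 against 3 can give, and 0.154 after adjustment over 20 comparisons of 4 ratios. Igf2 itself had 35.3 ± 2.79 CPM (SD, n = 3) in sham, 25.8 ± 5.73 at 24 h and 47.0 ± 12.4 at 72 h. By edgeR it fell by 0.45 on the log2 scale at 24 h (adjusted p = 0.0395) and rose by 0.415 at 72 h (adjusted p = 0.037). The files count the H19 transcript, not miR-675, since small RNAs were not in these poly(A) libraries. The miRNAs that H19 hosts in an exon are shown here to identify the RNA that rose most. RefSeq (GRCm38.p6) gives these mature sequences, with the seed, bases 2 to 8, in capitals:
miR-675-5p: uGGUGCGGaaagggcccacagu
miR-675-3p: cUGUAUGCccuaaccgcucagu

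**Figure D2:**
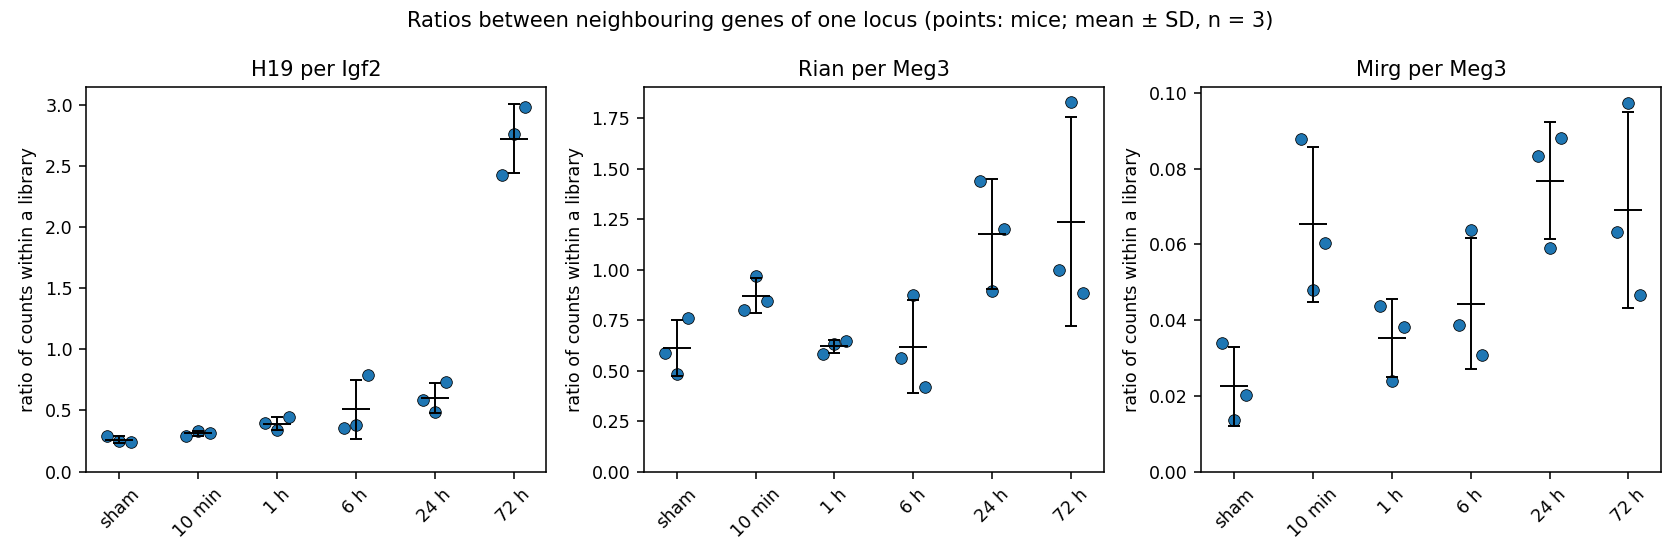
Ratios of raw counts within each library (y axes, linear from 0) by group (x axis) for H19 per Igf2, Rian per Meg3 and Mirg per Meg3, with points for mice and mean ± SD (n = 3). H19 per Igf2 climbs from 0.261 ± 0.0276 in sham to 2.72 ± 0.282 at 72 h, and Rian per Meg3 at 72 h is spread from 0.883 to 1.83.

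Meg3, Rian and Mirg are maternally expressed non-coding RNAs in a row on the plus strand of chromosome 12, and all 3 rose at 72 h and none passed the test before that. At 24 h they differed in sign, with log2 fold changes of -0.67 for Meg3, 0.16 for Rian and 0.95 for Mirg. Meg3 (ENSMUSG00000021268, chr12:109541001-109571726) comes first, followed after 32.2 kb by Rian (ENSMUSG00000097451, chr12:109603940-109661716), a host of small nucleolar RNAs, and after another 68.0 kb by Mirg (ENSMUSG00000097391, chr12:109729764-109749460), a host of microRNAs. From the start of Meg3 to the end of Mirg they cover 208 kb. Meg3 had 14.9, 11.5 and 13.2 CPM in sham, 5.70, 12.6 and 6.45 at 24 h, and 51.3, 32.9 and 73.7 at 72 h. Replicate 2 at 24 h lay among the sham hearts while the other two lay below them, and all 72 h hearts were above all others. Meg3 rose by 1.996 ± 0.33 on the log2 scale at 72 h (edgeR adjusted p = 8.73e-05). Its 24 h value had an SE of 0.34 (adjusted p = 0.131), and without replicate 2 of that time it was -1.12 and passed the test (adjusted p = 0.0185).

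Rian had 8.75, 5.55 and 10.0 CPM in sham, 8.20, 11.2 and 7.73 at 24 h, and 51.1, 60.2 and 65.0 at 72 h. The 24 h and sham hearts were mixed together and the 72 h hearts stood clear of both. Rian rose by 2.85 ± 0.22 on the log2 scale at 72 h (edgeR adjusted p = 4.9e-09), the smallest adjusted p of the 9 tested genes at that time. Mirg was scarce, with 0.506, 0.156 and 0.267 CPM in sham, which were 19 counts in the 3 libraries together. It had 3.25, 3.20 and 3.44 CPM at 72 h, from 316 counts (103, 105 and 108). Its spread relative to the mean was then the smallest of the 10 genes, but counts this low vary by sampling alone. At 10 min it had 1.12, 0.336 and 0.558 CPM, and those hearts overlapped sham. Mirg rose by 3.39 ± 0.40 on the log2 scale at 72 h (edgeR adjusted p = 5.87e-07). Its value at 10 min was 1.05 ± 0.47 (unadjusted p = 0.0369, edgeR adjusted p = 0.682), and it was not called there. Its 24 h value passed the test with library total scaling (1.15, adjusted p = 0.0454).

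The proportions among the RNAs of the row varied between groups, within what 3 hearts a group can show. Rian counts per Meg3 count were 0.588, 0.484 and 0.758 in sham, 1.44, 0.896 and 1.20 at 24 h, and 0.996, 1.83 and 0.883 at 72 h. At 10 min they were 0.80, 0.970 and 0.843. All hearts of these 3 times were above all sham hearts, by 1.45-fold at 10 min, 1.93-fold at 24 h and 1.95-fold at 72 h in geometric means (exact two-sided permutation p = 0.1 each, the smallest possible; 0.154 adjusted over the 20 comparisons). At 1 h and 6 h the ratio was 1.03- and 0.985-fold its sham value (exact p = 0.8 and 1.0). At 24 h neither gene passed edgeR's test against sham, and the Meg3 values were low in the same libraries in which the ratio was highest. Mirg per Meg3 at 72 h was 3.14-fold its sham value (exact p = 0.1, 0.154 adjusted), on only 19 Mirg counts in sham. Mirg per Rian at 72 h was 1.61-fold its sham value, with overlapping hearts (exact p = 0.3, 0.333 adjusted). At 72 h replicate 2 was lowest for H19, Meg3 and Cdkn1c and highest for Mest, and intermediate for Rian.

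RefSeq places 20 microRNA hairpins on the strand of 5 of the 10 genes: 1 in an exon of H19, 1 in an exon of Meg3, 3 in introns of Rian, 14 in Mirg (9 overlapping an exon and 5 in introns) and 1 in an intron of Mest. Mirg holds most of the hairpins and had the lowest FPKM, a level per gene length, of these 5 genes. Of 38 mature miRNAs, 1 seed, GGUUGCC, occurs more than once, in miR-453 and miR-496a-5p of Mirg. Mature sequences from the rest of the row and from Mest are shown with these to give one example per host, again with bases 2 to 8 in capitals. None of these miRNAs was measured.
miR-770-5p (Meg3): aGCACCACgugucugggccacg
miR-370-3p (Rian): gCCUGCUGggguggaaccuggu
miR-453 (Mirg): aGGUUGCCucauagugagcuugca
miR-496a-5p (Mirg): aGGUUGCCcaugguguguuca
miR-335-5p (Mest): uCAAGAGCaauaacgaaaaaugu

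**Figure D3:**
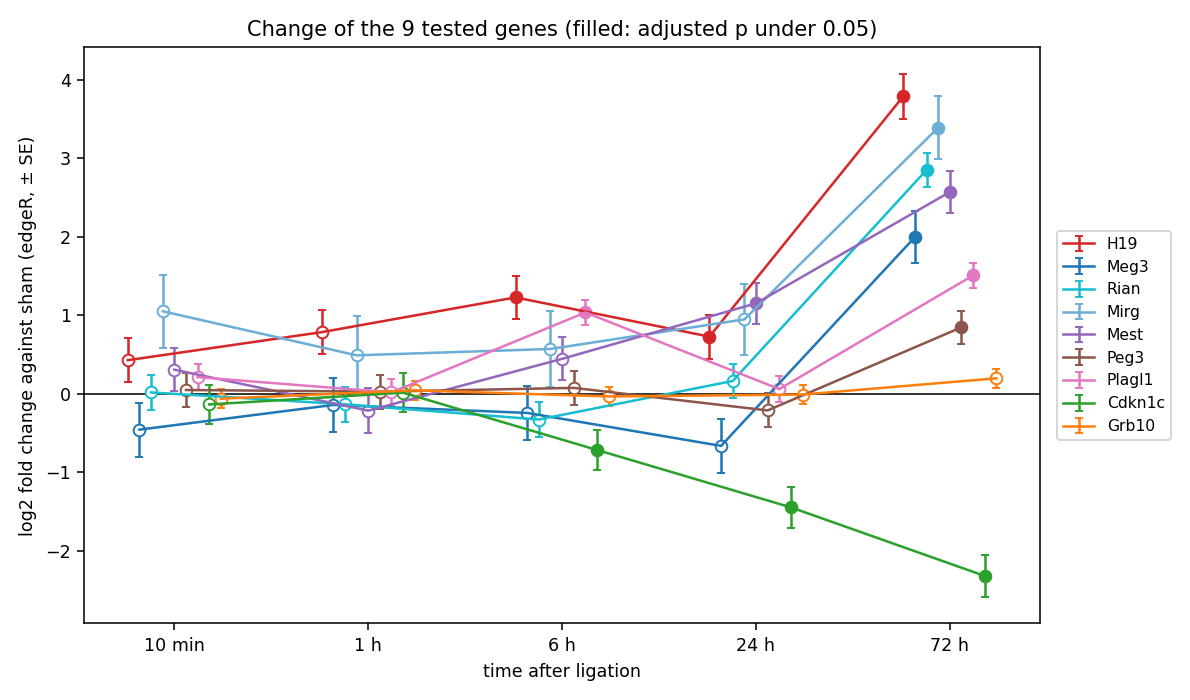
Log2 fold change against sham (y axis, edgeR, ± SE) of the 9 tested genes at each time (x axis, categories), filled where the adjusted p was under 0.05. All points are open at 10 min and 1 h, H19, Plagl1 and Cdkn1c are filled at 6 h, H19, Mest and Cdkn1c at 24 h, and all but Grb10 at 72 h.

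Dlk1 encodes a transmembrane protein related to Notch ligands and is the paternally expressed gene at the other side of Meg3, 77.7 kb away (ENSMUSG00000040856, chr12:109452823-109463336, plus strand). It was close to absent: libraries held 0 to 12 counts, 57 counts in all, and 13 of the 18 libraries had at most 3. Sham libraries had 1, 0 and 5 counts and 72 h libraries had 12, 6 and 3, which overlap. With no filter on low counts, edgeR gave a log2 fold change of 1.165 at 72 h (adjusted p = 0.331), and a difference was not detectable at this depth. The maternal RNAs of this region rose at 72 h, and whether Dlk1 changed too cannot be told from 0 to 12 counts per library.

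Mest encodes a protein of the alpha/beta hydrolase fold family and was described as a transcript of embryonic mesoderm (ENSMUSG00000051855, chr6:30723547-30748465, plus strand). Mest rose at 24 h and further at 72 h, and both calls were kept in all 18 fits that each left out 1 library. Its values were 3.94, 2.90 and 5.24 CPM in sham and 7.27, 4.55 and 4.79 at 6 h, which overlap. They were 6.21, 8.28 and 12.6 at 24 h and 18.5, 29.1 and 24.6 at 72 h, so all 24 h hearts were above sham but not above all 6 h hearts, and all 72 h hearts were above all others. Mest rose by 1.15 ± 0.27 on the log2 scale at 24 h (edgeR adjusted p = 0.00219) and by 2.57 ± 0.26 at 72 h (adjusted p = 1.56e-07). Replicate 3 at 24 h was highest for Mest, lowest for Cdkn1c and lowest for summed cardiomyocyte markers in its group, and without it the 24 h value was 0.84 (adjusted p = 0.0138). Mest overlaps Copg2 on the opposite strand, and whether reads were assigned by strand is not given in the sources used here. Copg2, named for this overlap after its values were seen, fell by 0.37 on the log2 scale at 24 h (edgeR adjusted p = 0.0197). At 72 h Copg2 stood at -0.26 and was not called (edgeR adjusted p = 0.0698), opposite in sign to Mest on the TMM scale. Its deposited FPKM went up instead, from 6.06 ± 0.268 in sham to 7.60 ± 0.182 at 72 h (SD, n = 3), so the sign at 72 h depends on the scaling.

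Peg3 and Plagl1 are paternally expressed zinc finger proteins, and both rose at 72 h, but Plagl1 also had an earlier, separate rise. Peg3 (ENSMUSG00000002265, chr7:6703892-6730431, minus strand) is linked to cell death and metabolic control. It had 9.61, 9.65 and 10.2 CPM in sham, 7.51, 11.7 and 5.98 at 24 h, and 16.1, 16.9 and 19.95 at 72 h. The 24 h hearts straddled sham and the 72 h hearts stood above all others, and Peg3 rose at 72 h by 0.85 ± 0.21 on the log2 scale (edgeR adjusted p = 0.00181). Its 24 h value was -0.21 ± 0.22 (adjusted p = 0.446), and without replicate 2 of that time it was -0.54 and passed the test (adjusted p = 0.0451).

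Plagl1 (ENSMUSG00000019817, chr10:13060504-13131694, plus strand) is a transcription factor that restrains the cell cycle and is known to activate other imprinted genes. It had 3.94, 2.96 and 3.38 CPM in sham and 3.24, 3.73 and 3.44 at 1 h. The values then were 8.46, 6.36 and 6.28 at 6 h, 3.88, 3.18 and 3.66 at 24 h, and 9.49, 8.89 and 10.9 at 72 h. The hearts at 6 h and 72 h lay above all hearts of the other groups, and the 24 h hearts lay within the sham range. Plagl1 rose by 1.035 ± 0.17 on the log2 scale at 6 h (edgeR adjusted p = 0.000195), and by 0.88 (adjusted p = 0.0015) without the atrial-marked replicate 1. At 24 h the value was 0.06 ± 0.17 (adjusted p = 0.801), and at 72 h Plagl1 rose by 1.51 ± 0.16 (adjusted p = 1.88e-07). The steps between were themselves tested: Plagl1 rose from 1 h to 6 h by 1.02 ± 0.17, fell from 6 h to 24 h by 0.98 on the log2 scale (SE 0.16), and rose from 24 h to 72 h by 1.45 ± 0.16, with edgeR adjusted p of 0.000334, 0.000376 and 7.68e-07. No other gene of the set changed in more than one direction between consecutive times.

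Cdkn1c encodes p57, an inhibitor of cyclin-dependent kinases that holds cells out of the cycle (ENSMUSG00000037664, chr7:143458339-143461050, minus strand), and it was the one gene of the set that fell. It had 38.1, 39.6 and 33.0 CPM in sham and 33.0, 41.8 and 36.9 at 1 h, which overlap. It had 21.7, 25.5 and 19.97 CPM at 6 h, 15.5, 18.2 and 6.50 at 24 h, and 7.98, 5.30 and 8.85 at 72 h. Every heart from 6 h on was below every sham heart, and the 24 h and 72 h hearts overlapped only through replicate 3 at 24 h. Cdkn1c fell by 0.72 on the log2 scale at 6 h (SE 0.26, edgeR adjusted p = 0.0477), by 1.45 at 24 h (SE 0.26, adjusted p = 0.000481) and by 2.32 at 72 h (SE 0.27, adjusted p = 1.64e-06). The call at 6 h was lost in 15 of 18 fits that each left out 1 library, among them the fit without the atrial-marked replicate 1 (-0.69, adjusted p = 0.129), and with no filter on low counts (adjusted p = 0.13). The calls at 24 h and 72 h were kept in all 18. Without replicate 3 at 24 h the value at that time was -1.13 (adjusted p = 5.03e-05).

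Grb10 encodes an adaptor protein that binds the insulin and IGF receptors and dampens their signal (ENSMUSG00000020176, chr11:11930508-12038683, minus strand). It had 73.5, 74.7 and 82.4 CPM in sham, 88.3, 74.2 and 66.3 at 24 h, and 79.5, 93.0 and 91.6 at 72 h. The groups overlapped at every time, and its largest difference from sham was 0.20 ± 0.12 on the log2 scale at 72 h (edgeR adjusted p = 0.162). Grb10 was also the one tested gene of the set that did not pass an F test of any difference over the 5 times (adjusted p = 0.372). The other 8 passed, as did 78.4% of all tested genes. Scaling to library totals alone moved the median of all genes at 72 h to 0.61, and on that scale Grb10 stood at 0.78 (adjusted p = 9.92e-06).

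Before 6 h, 0 genes of the set passed edgeR's test, and DESeq2 and limma called 0 as well. At 10 min 0.0736% of all tested genes were called, and at 1 h 0.294%. At each of these times 1 gene of the set had an unadjusted edgeR p under 0.05, Mirg at 10 min and H19 at 1 h. With the libraries of 1 h and sham alone in the fit, 1 gene of the set was called at 1 h. At 6 h, 3 of the 9 tested genes were called, H19 and Plagl1 higher and Cdkn1c lower, where 28.4% of all tested genes were (16.3% higher, 12.2% lower). At 24 h 3 were called, H19 and Mest higher and Cdkn1c lower, where 43.8% of all tested genes were (23.7% higher, 20.2% lower), and without replicate 2 at 24 h there were 5. Both shares of the set lie near or below those of all genes. Between consecutive times, none changed from 10 min to 1 h (0.307% of all tested genes), and 2 changed from 1 h to 6 h (24.5%) and 2 from 6 h to 24 h (27.8%), Plagl1 and Cdkn1c in both cases. The Cdkn1c calls were lost in 15 of 18 leave-one-out fits from 1 h to 6 h and in 16 of 18 from 6 h to 24 h, and the first also with no filter (edgeR adjusted p = 0.148). The second was -0.425 with library total scaling and -0.481 by limma, neither called. From 24 h to 72 h, 8 changed (50.5%), with Grb10 again the exception. The Cdkn1c call of this step was lost with library total scaling (-0.485, edgeR adjusted p = 0.155), by limma (-0.328, adjusted p = 0.268) and with the 2 groups alone (-0.861, edgeR adjusted p = 0.1). For 7 of these 8 all 72 h hearts were above all 24 h hearts, which was so for 27.5% of all tested genes. The median log2 difference of that last interval was 1.45 over the 9 tested genes and -0.03 over all genes.

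Per gene length, H19 moved from rank 3 in sham to rank 1 at 72 h, and Cdkn1c from rank 1 to rank 4. Grb10, Plagl1, Mirg and Dlk1 kept their ranks. On the deposited FPKM scale, which divides counts by gene length and by the library total, sham hearts had most Cdkn1c (16.7 ± 1.11 FPKM, SD, n = 3), then Grb10 (7.85 ± 0.727), H19 (3.61 ± 0.598) and Mest (0.952 ± 0.304). Peg3 (0.683 ± 0.0423) and Meg3 (0.676 ± 0.0915) followed and did not differ beyond their spread, nor did Rian (0.414 ± 0.128) and Plagl1 (0.406 ± 0.0598). Mirg (0.0393 ± 0.0224) and Dlk1 (0.0153 ± 0.0198) were lowest. At 72 h H19 was first at 75.2 ± 22.3 FPKM, ahead of Grb10 (13.5 ± 1.42) and Mest (8.51 ± 1.96). Cdkn1c (5.04 ± 1.33), Rian (4.49 ± 0.658) and Meg3 (4.07 ± 1.67) came next with overlapping spreads. Peg3 (1.85 ± 0.267) and Plagl1 (1.74 ± 0.220) overlapped too. H19 made up 11.5% of the summed FPKM of the 10 genes in sham and 65.4% at 72 h, and Cdkn1c 53.3% and 4.38%. The gene length behind the deposited H19 values was 2372 bases, where GENCODE M21 gives 2460 bases of exon, and for the other 9 genes the lengths were equal.

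**Figure D4:**
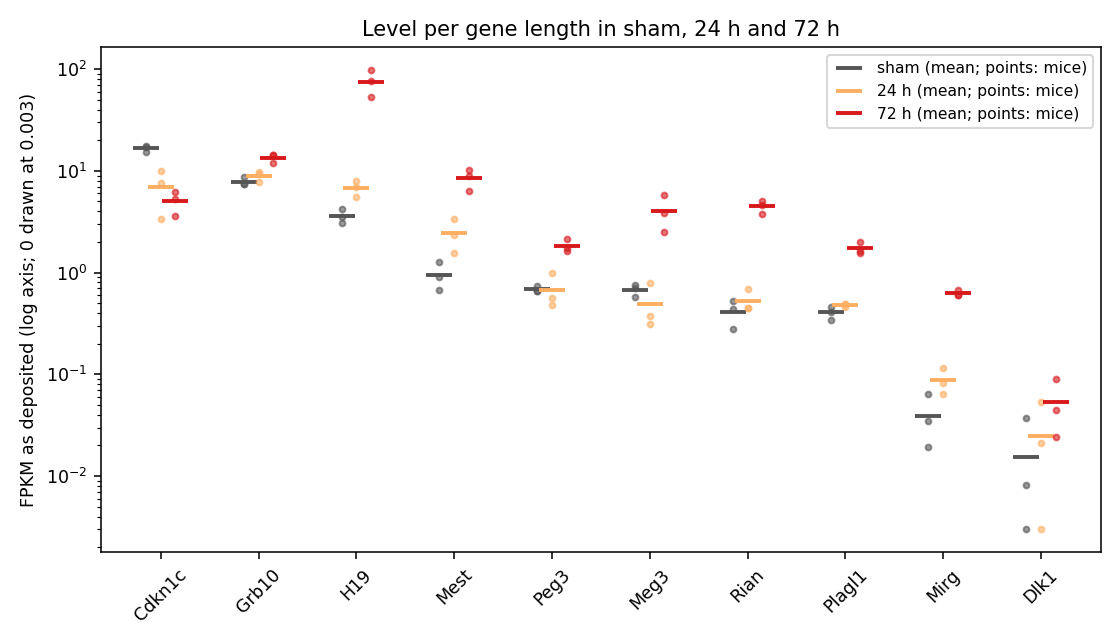
Deposited FPKM (y axis, log scale) of the 10 genes (x axis, ordered by sham level) in sham, 24 h and 72 h, with points for mice, dashes for means and values of 0 drawn at 0.003. H19 moves from the third place in sham (3.61) to the first at 72 h (75.2), while Cdkn1c moves from the first (16.7) to the fourth (5.04).

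Promoter windows from RefSeq (GRCm38.p6), 250 bases before to 50 after a start, were found for 8 of the 10 genes, in 12 windows. They were searched on both strands for TGCCGC, which reads GCGGCA on the other strand and is the core hexamer bound by ZFP57, a protein that keeps methylation at imprinted regions. It occurred in 11.6% of 32851 promoter windows, once in the first window of Meg3, once in Plagl1, once in the first window of Grb10 and more than once in the windows at the downstream start of Mest. Windows of Dlk1, Rian, Mirg and Peg3 did not hold these letters. GGGGCCCC, an octamer that reads the same on both strands and is bound by PLAGL1, occurred in 1.08% of windows and, within the set, once in Peg3. The hexamer thus occurred in windows of 3 genes that rose at 72 h and of 1, Grb10, that did not pass the test. These 4 windows are shown, with the hexamer in capitals. They are chr12:109540746-109541045 (plus) for Meg3, chr6:30737800-30738099 (plus) for Mest, chr10:13090582-13090881 (plus) for Plagl1 and chr11:12037371-12037670 (minus) for Grb10. They hold 13, 17, 26 and 45 CpG dinucleotides, where the median window has 7.
Meg3: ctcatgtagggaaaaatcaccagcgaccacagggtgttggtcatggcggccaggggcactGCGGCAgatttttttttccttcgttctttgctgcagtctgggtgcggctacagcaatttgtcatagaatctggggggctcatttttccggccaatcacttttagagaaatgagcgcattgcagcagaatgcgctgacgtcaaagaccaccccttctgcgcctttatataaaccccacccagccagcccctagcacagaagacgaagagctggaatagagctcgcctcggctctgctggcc
Mest: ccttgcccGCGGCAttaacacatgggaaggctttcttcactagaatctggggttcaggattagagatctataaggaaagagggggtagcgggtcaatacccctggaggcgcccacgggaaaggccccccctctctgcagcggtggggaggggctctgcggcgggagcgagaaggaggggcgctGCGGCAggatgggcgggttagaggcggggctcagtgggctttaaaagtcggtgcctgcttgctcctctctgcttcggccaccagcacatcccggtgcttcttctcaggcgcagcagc
Plagl1: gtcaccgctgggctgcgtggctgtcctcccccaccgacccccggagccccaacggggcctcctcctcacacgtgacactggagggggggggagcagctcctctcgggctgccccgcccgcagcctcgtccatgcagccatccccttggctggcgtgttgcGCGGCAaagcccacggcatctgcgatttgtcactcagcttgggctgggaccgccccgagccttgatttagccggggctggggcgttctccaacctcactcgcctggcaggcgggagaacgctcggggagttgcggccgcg
Grb10: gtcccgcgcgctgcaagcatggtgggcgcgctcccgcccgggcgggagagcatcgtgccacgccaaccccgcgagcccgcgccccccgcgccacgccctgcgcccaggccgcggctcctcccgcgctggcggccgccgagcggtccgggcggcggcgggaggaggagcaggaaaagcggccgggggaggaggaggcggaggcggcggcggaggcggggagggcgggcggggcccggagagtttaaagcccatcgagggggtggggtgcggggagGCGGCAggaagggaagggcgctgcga

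Cell type markers moved with these genes. Summed over 9 markers, cardiomyocyte transcripts such as Myh6 took 62725 to 68429 CPM in sham, 28037 to 42412 at 24 h and 15998 to 21508 at 72 h, and all 9 fell at 72 h. Cdkn1c fell at these times. At 6 h the cardiomyocyte sum of 54841 to 67159 CPM overlapped sham. Cdkn1c was called lower at 6 h, but that call was lost in 15 of 18 fits that each left out 1 library. Summed over 10 markers, fibroblast transcripts took 2133 to 2398 CPM in sham, 1267 to 1636 at 24 h and 9113 to 11001 at 72 h, and 9 rose and 1 fell at 72 h. Summed over 7 markers, myeloid transcripts took 188 to 209 CPM in sham, 489 to 710 at 24 h and 2730 to 3558 at 72 h, and all 7 rose at both times. Summed over 6 markers, transcripts of dividing cells took 1.87 to 3.64 CPM in sham, 5.10 to 21.4 at 24 h and 207 to 294 at 72 h, and all 6 rose at 24 h and at 72 h. H19, Meg3, Rian, Mirg, Mest, Peg3 and Plagl1 were highest at the same time as these markers. At 24 h, when Mest had risen, the myeloid and cycling sums were above sham and the fibroblast sum was below it (5 markers higher and 4 lower). Neutrophil transcripts, summed over 5 markers, took 2.31 to 3.58 CPM in sham and 96.6 to 733 at 6 h. They took 35.1 to 652 CPM at 24 h and 45.1 to 55.7 at 72 h. All 5 were higher at 6 h and at 24 h, and 4 were at 72 h. H19 was called higher at these times, and Plagl1 at 6 h and 72 h but not at 24 h. Within the 6 h group, replicate 1 had the highest neutrophil sum (733) and the highest Plagl1 (8.46 CPM). Replicate 3 had the lowest sum (96.6) and the highest H19 (31.7 CPM). Skeletal muscle, which expresses H19, had 9 marker genes in the table. They summed to 3.79 to 6.17 CPM in sham and 6.66 to 9.65 at 72 h, without overlap. Of 5 tested, 1 was higher and 2 were lower at 72 h. Tnnc2 and Myf6 were at 0 in all 72 h libraries, and also in all 10 min libraries. Some genes of this list were at 0 at 1 h, 6 h and 24 h as well. Endothelial markers (7 genes) took 1276 to 1429 CPM in sham, 970 to 1169 at 24 h and 809 to 1042 at 72 h. Of these, 2 were higher and 1 lower at 6 h, 4 were lower at 24 h and 5 at 72 h. Pericyte and smooth muscle markers (7 genes) took 1409 to 1441 CPM in sham and 1170 to 1219 at 6 h. They took 704 to 921 CPM at 24 h and 841 to 993 at 72 h. Of these, 0 were called at 6 h, 4 were lower at 24 h, and 5 were lower and 1 higher at 72 h. Cdkn1c was called lower at 6 h, 24 h and 72 h. At 72 h, 3 of 6 epicardial genes, 1 of 3 tested atrial genes and 0 of 1 tested adipocyte gene were higher and none of these lower, and all 3 red blood cell genes were lower. The epicardial sums at 72 h were 59.2, 18.8 and 21.8 CPM, which overlapped the 12.1 to 21.6 CPM of sham. No cardiomyocyte, fibroblast, myeloid or cycling marker was at 0 in any group. The part of any of these cell types in the results was not tested.

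**Figure D5:**
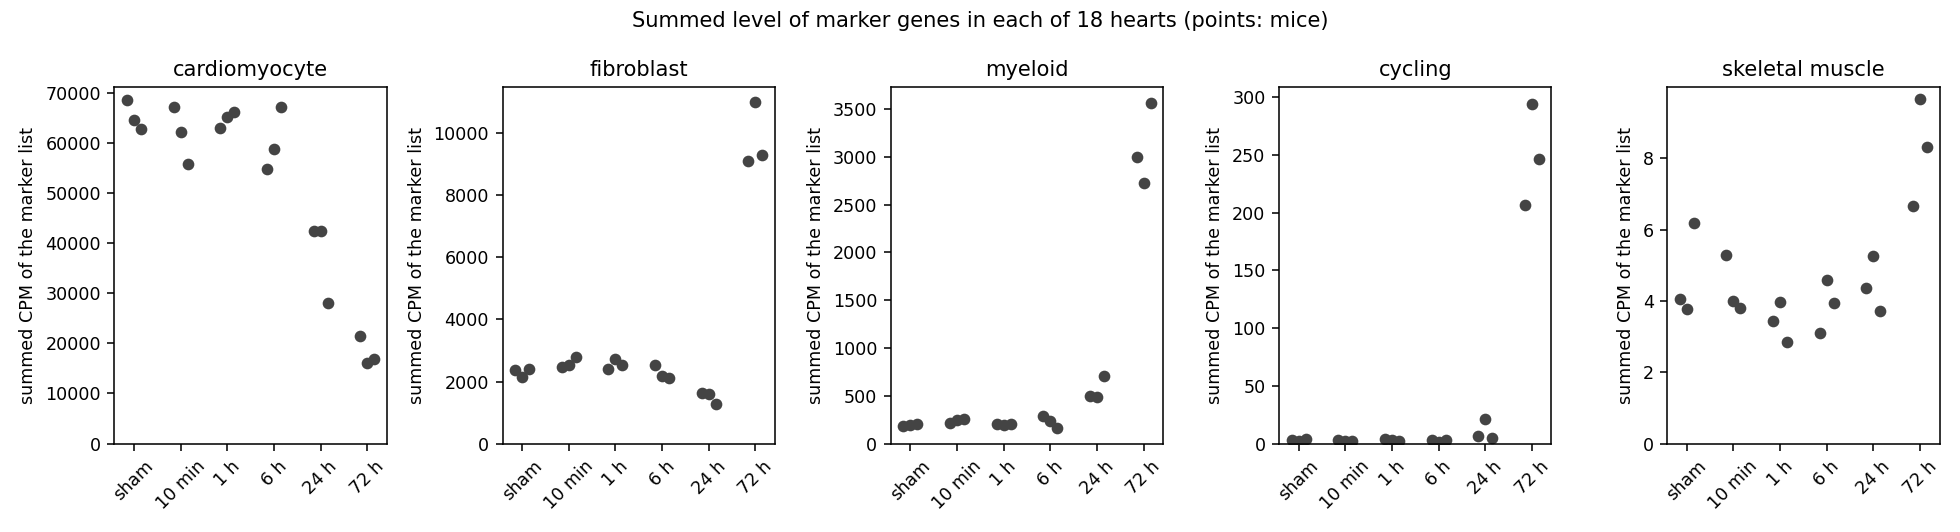
Summed TMM-scaled CPM of marker genes (y axes, linear from 0, different in each panel) by group (x axis), with points for the 18 mice. Cardiomyocyte markers drop at 24 h and 72 h, while fibroblast, myeloid and cycling markers peak at 72 h; skeletal muscle markers stay under 10 CPM.

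Of 48 other imprinted genes listed, 46 were in the table and 37 were tested. At 6 h 4 were higher and 6 lower, at 24 h 9 and 11, and at 72 h 12 and 16, where 34.2% of all tested genes were higher and 32.2% lower at 72 h (23.7% and 20.2% at 24 h, 16.3% and 12.2% at 6 h). At 72 h the median of the list was -0.24 on the log2 scale. Scaled to library totals this flipped to 19 higher and 7 lower with a median of 0.35, where the median of all genes was 0.61, and at 24 h to 11 higher and 3 lower. Among those with a mean of at least 50 counts per library, the largest changes were in Peg10, a retrotransposon-derived gene needed for the placenta, Asb4 and Tfpi2, an inhibitor of proteases. Peg10 rose by 2.31 ± 0.33 on the log2 scale at 6 h (edgeR adjusted p = 6.87e-05), 1.27 ± 0.34 at 24 h (0.00525) and 2.315 ± 0.32 at 72 h (4.22e-06). Tfpi2 rose by 1.62 ± 0.39 at 24 h (edgeR adjusted p = 0.003) and 2.64 ± 0.38 at 72 h (9.11e-06). Asb4 rose by 1.80 ± 0.23 at 6 h (edgeR adjusted p = 3.21e-05) and stood at 0.10 at 72 h (0.716).

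Of the genes that maintain imprints, more were higher than lower at 24 h and 72 h. Of 14, all tested, 0 were higher and 2 lower at 6 h, 6 higher and 1 lower at 24 h, and 9 higher and 1 lower at 72 h, with medians of -0.03, 0.26 and 0.53, and 13 higher and 0 lower at 72 h when scaled to library totals. Of all tested genes, 16.3% were higher and 12.2% lower at 6 h, 23.7% and 20.2% at 24 h, and 34.2% and 32.2% at 72 h. Uhrf1, which brings the maintenance methyltransferase to replicating DNA, rose by 2.88 ± 0.32 on the log2 scale at 24 h (edgeR adjusted p = 4.52e-06) and 4.63 ± 0.32 at 72 h (1.66e-09), at the times at which cycling markers rose. Zfp57 rose by 1.56 ± 0.31 at 72 h (edgeR adjusted p = 0.000199). Hdac1, a histone deacetylase, rose by 0.66 ± 0.09 at 24 h (edgeR adjusted p = 1.79e-05) and by 1.10 ± 0.09 at 72 h (4.21e-09). Dnmt3a, a de novo methyltransferase, fell by 0.74 on the log2 scale at 6 h (SE 0.11, edgeR adjusted p = 0.000137) and by 0.60 at 24 h (0.000407), and stood at 0.04 at 72 h (0.77). Zfp445, a zinc finger that acts beside ZFP57, fell by 0.48 at 6 h (SE 0.10, edgeR adjusted p = 0.00137). At 10 min Zfp445 was lower by 0.66 (SE 0.10, edgeR adjusted p = 0.0124), a call not rerun under other settings. It stood at -0.075 at 1 h (edgeR adjusted p = 0.999) and at -0.225 at 24 h (0.0673), neither called. Its fall of 0.735 at 72 h (edgeR adjusted p = 2.4e-06) was lost with library total scaling (-0.147, adjusted p = 0.266) and by limma (-0.134, adjusted p = 0.277).

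Known partners of the set lie in insulin and IGF signalling, Notch signalling, the cell cycle, and the SIAH1 and BAX pathway of Peg3. Of 25 tested, 7 were higher and 2 lower at 6 h, 10 and 3 at 24 h, and 13 and 6 at 72 h, with medians of 0.30, 0.18 and 0.34, where 28.4%, 43.8% and 66.4% of all tested genes were called in either direction. Cdkn1a, a relative of Cdkn1c that encodes p21, moved the other way. It had 17.6 ± 2.08 CPM (SD, n = 3) in sham and 329 ± 109 at 6 h, a rise of 4.22 ± 0.57 on the log2 scale (edgeR adjusted p = 0.000179). It was still 2.92 ± 0.54 above sham at 24 h (0.000904) and 2.16 ± 0.53 at 72 h (0.00272). Ccne1, a cyclin of the kinase that both inhibitors bind, rose by 2.62 ± 0.40 at 72 h (edgeR adjusted p = 1.19e-05). Its 24 h call (1.05 ± 0.41, edgeR adjusted p = 0.0472) was lost in 11 of 18 fits that each left out 1 library. Igf1, the ligand of the receptor on which Grb10 acts, rose by 3.11 ± 0.17 at 72 h (edgeR adjusted p = 6.27e-11). Irs2, a receptor substrate, rose by 1.715 ± 0.25 at 6 h (edgeR adjusted p = 0.000161) and was already called at 1 h (1.68 ± 0.25, 0.00363). Its 24 h call (0.655 ± 0.25, edgeR adjusted p = 0.0437) was lost in 10 of 18 fits that each left out 1 library. Bax, which promotes cell death with Peg3, rose by 1.06 ± 0.16 at 24 h (edgeR adjusted p = 5.6e-05) and by 1.21 ± 0.16 at 72 h (1.87e-06).

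Genes with the most similar course were found among 11658 genes by the root-mean-square difference of log2 fold changes over the 5 comparisons with sham, a description that shares the sham libraries throughout. Nearest to H19 were Tlr7 (0.312) and Cebpa (0.354), to Meg3 Ccn5 (0.15) and Aph1c (0.187), and to Mest Loxl1 (0.113) and Cxcr4 (0.130). Nearest to Peg3 were Nid1 (0.0477) and Lamp1 (0.0817), to Plagl1 Hhat (0.177) and Galnt16 (0.195), to Cdkn1c Asb10 (0.0889) and Magix (0.124), and to Grb10 Fkbp8 (0.0238) and Cox6a1 (0.0288). Within the set the nearest pairs were Peg3 with Grb10 (0.312), H19 with Mirg (0.472) and Peg3 with Plagl1 (0.540), and the farthest was H19 with Cdkn1c (3.06). The genes outside the set were the nearest of 11658, and the set offers far fewer, so distances inside and outside cannot be compared.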

How the data were processed

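The genes and lists were chosen with earlier results of these data known. The authors deposited whole-number read counts per Ensembl gene and FPKM values for 18 libraries. Per the submitters' processing notes the tools include cutadapt 1.18, HISAT2 2.1.0 and featureCounts, with build mm10; the strand setting is not given in the sources used here. Per the labels, poly(A) RNA was copied from random hexamers, with no molecular identifiers described. Within the 6 h group, the FPKM deposited for replicate 2 fit the counts of replicate 3 and the reverse.

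Counts were tested in R 4.3.3 with edgeR 4.0.16: filterByExpr, TMM, a robust quasi-likelihood fit with 1 mean per group over all 18 libraries, and two-sided contrasts with Benjamini-Hochberg adjustment over 16311 genes. The script was tested on simulated counts first. Gene positions are those of GENCODE M21 (30512 of 30583 IDs matched). The alternatives were RLE or library total scaling, no filter, DESeq2 1.42.0, limma 3.58.1 on log2(FPKM + 1), a replicate block, the 2 groups alone, and leaving out each library. From the lists, the 2 called genes with the largest change at 6, 24 and 72 h with a mean of at least 50 counts were named, and for H19, Meg3, Mest, Peg3, Plagl1, Cdkn1c and Grb10 the 2 genes most alike.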

Additional observations from a re-analysis of the deposited data

Results flagged for a closer look

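The difference from sham changed between consecutive late times for 8 of the 9 tested genes, by edgeR's test of that difference itself. Of all tested genes, 50.5% were called from 24 h to 72 h and 27.8% from 6 h to 24 h. The values below are differences of log2 fold change, the later time minus the earlier, and since both share the sham libraries each equals the direct comparison of the 2 times. From 24 h to 72 h they were 3.06 for H19, 2.66 for Meg3, 2.69 for Rian, 2.44 for Mirg, 1.42 for Mest, 1.06 for Peg3 and 1.45 for Plagl1, with edgeR adjusted p from 2.34e-08 for Rian to 0.00043 for Peg3. All 3 hearts at 72 h were above all 3 at 24 h for each of these 7 genes, which was so for 27.5% of all tested genes. For Cdkn1c the value was -0.87 (adjusted p = 0.0131) with 1 overlapping heart, and it was no longer past the threshold without replicate 1 or 2 at 24 h or replicate 2 at 72 h (-0.59 to -1.20 over all fits that left out 1 library), with library total scaling (-0.485, adjusted p = 0.155), by limma (-0.328, adjusted p = 0.268) or with the 2 groups alone (-0.861, adjusted p = 0.1). From 6 h to 24 h the value was -0.98 for Plagl1 (adjusted p = 0.000376), lower in 3 of 3 hearts, and -0.73 for Cdkn1c (adjusted p = 0.049), which was past the threshold in 2 of 18 fits that left out 1 library.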

How the results depend on the processing

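At 72 h the 8 calls kept direction and threshold in all 25 alternatives, and Grb10 was called in 3, with values from 0.15 to 0.78. Leaving out 1 library gave 2 to 3 called genes of the set at 6 h, 2 to 5 at 24 h, 1 to 3 from 1 h to 6 h and 1 to 3 from 6 h to 24 h. From 6 h to 24 h the count was 4 with library total scaling, 1 with no filter and 1 with the 2 groups alone, against 2. From 1 h to 6 h it was 1 with no filter, against 2, and at 1 h against sham it was 1 with the 2 groups alone, against 0. With a replicate block, 1 gene of the set was called from 1 h to 6 h and 1 from 6 h to 24 h, Plagl1 in each, and Cdkn1c at 6 h against sham had an adjusted p of 0.0577. Deviations of same-numbered libraries from their group means had correlations of -0.256 to 0.252. Pairs with different numbers were not computed, so this cannot decide whether the numbers link libraries.

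Over all genes, those called at 10 min numbered 12, but 26 with no filter, 60 by DESeq2, 2 by limma and 360 with the 2 groups alone, and 0 to 24 with 1 library left out. At 1 h they numbered 48, but 95 by DESeq2, 190 with the 2 groups alone and 31 to 68 with 1 library left out. At 6 h they numbered 4639, and 2926 to 5319 with 1 library left out, lowest without replicate 1 at 6 h. Library total scaling put 79.9% of the 72 h calls, 75.5% at 24 h and 40.6% at 6 h on the higher side, where TMM put 51.4%, 54% and 57.2%, and it moved the median of all genes by 0.61, 0.20 and -0.12. At 10 min the shares were 77.8% and 41.7% of few calls.

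Signs turned only for uncalled values near 0. Peg3 at 6 h was -0.038 with library totals, -0.020 by limma and -0.135 to 0.281 with 1 library left out. Grb10 at 24 h was 0.177 with library totals, 0.155 by limma and -0.118 to 0.081 with 1 library left out, and at 6 h it was -0.067 to 0.018. Rian at 24 h was -0.047 to 0.348 and Plagl1 at 24 h -0.035 to 0.171, each over the fits that left out 1 library. The cause was not tested. Depth limits Mirg (19 counts in sham) and Dlk1.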
